A study of Mus musculus with 12 samples.

Results

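The facilitative sugar transporters encoded by the Slc2a (GLUT) genes were followed in interscapular brown adipose tissue of 12 mice, 6 labelled cold and 6 labelled ctrl. The set comprised 10 genes chosen by name, Slc2a1, Slc2a3, Slc2a4, Slc2a5, Slc2a6, Slc2a8, Slc2a9, Slc2a10, Slc2a12 and Slc2a13, of the 54356 genes in the deposited files. Of these, 9 passed the filter on low counts and were tested, and Slc2a6, with 40 reads over all libraries, did not pass it.

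All animals were male wild-type C57BL/6N mice of 20 weeks, with no allele or transgene named in the labels. The cold animals were housed singly at 4 °C for 24 h. The labels carry the same treatment text for the ctrl animals, so the housing and temperature of the ctrl group at the time of sampling rest on the group name alone, and the colony was kept at 22 to 24 °C. The series text names 3 cold animals and the labels name 6. Poly(A) RNA was sequenced as strand-specific libraries with 16.0 to 31.4 M estimated reads each.

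Most proteins of this family let hexoses or related molecules cross membranes down their concentration gradient. GLUT4, the product of Slc2a4, is the insulin-responsive glucose transporter of fat and muscle and is held inside the cell in vesicles until a signal moves it to the surface, so its transcript level and its activity at the membrane are separate quantities. GLUT1 (Slc2a1) is the widely expressed basal glucose transporter, and GLUT5 (Slc2a5) is selective for fructose. Brown adipose tissue is a heat-producing tissue that takes up large amounts of glucose in cold.

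The 250 bases before and 50 after the RefSeq start site (GRCm38.p6) are shown for 3 members that changed, because each has an entry in the RefSeq promoter table, which holds 8 of the 10 genes. Capitals mark the GC box (GGGCGG), the CCAAT box (CCAAT) and the hypoxia response core (ACGTG), each on either strand, and all sequences read 5′ to 3′ on the plus strand, which is the strand of all 3 genes. The Slc2a5 window is chr4:150119094-150119393, the Slc2a1 window chr4:119108495-119108794 and the Slc2a12 window chr10:22644761-22645060.
Slc2a5: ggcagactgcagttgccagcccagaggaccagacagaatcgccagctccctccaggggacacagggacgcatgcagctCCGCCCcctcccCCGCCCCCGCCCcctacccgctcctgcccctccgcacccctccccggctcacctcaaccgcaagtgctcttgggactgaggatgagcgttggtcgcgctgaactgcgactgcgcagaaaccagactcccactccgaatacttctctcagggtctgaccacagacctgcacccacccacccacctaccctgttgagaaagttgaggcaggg
Slc2a1: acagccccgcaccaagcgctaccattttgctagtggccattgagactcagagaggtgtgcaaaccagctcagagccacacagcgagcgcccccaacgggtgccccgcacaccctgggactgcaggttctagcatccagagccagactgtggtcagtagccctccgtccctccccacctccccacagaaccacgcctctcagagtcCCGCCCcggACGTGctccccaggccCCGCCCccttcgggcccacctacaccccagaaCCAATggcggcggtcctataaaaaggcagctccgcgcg
Slc2a12: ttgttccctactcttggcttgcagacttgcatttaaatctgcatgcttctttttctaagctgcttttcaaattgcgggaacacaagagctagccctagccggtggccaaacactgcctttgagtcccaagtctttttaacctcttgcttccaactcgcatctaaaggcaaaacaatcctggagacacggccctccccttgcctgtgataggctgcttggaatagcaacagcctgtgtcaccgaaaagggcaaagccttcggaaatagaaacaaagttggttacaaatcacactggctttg

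The Slc2a5 window held 3 GC boxes, all on the minus strand, at positions -172 to -167, -160 to -155 and -154 to -149 from the RefSeq start site, which lies 61 nt downstream of the gene start annotated by GENCODE. The Slc2a1 window held GC boxes at -45 to -40 and -20 to -15, a CCAAT box at 13 to 17 and the letters ACGTG at -36 to -32. Its RefSeq start site lies 34 nt downstream of the gene start annotated by GENCODE. The GC box at -20 to -15 thus lies inside the GENCODE gene, and the letters ACGTG span its start. The Slc2a12 window held no match to any motif searched. The other motifs searched on both strands were the E-box (CACGTG), the carbohydrate response element (a pair of E-boxes with 5 bases between them), the cAMP response element (TGACGTCA), its core (TGACG, which is contained in the full element) and the estrogen-related receptor element (TNAAGGTCA). The hypoxia response core is contained in the E-box. The search for the carbohydrate response element took only an exact pair of E-boxes with 5 bases between them. No promoter of any gene matched that pattern, so the lack of a match in these windows cannot show whether such an element is present. Among all 32851 promoters in the table, 35.7% held a GC box, 37.4% a CCAAT box, 19.6% the hypoxia response core, 7.15% an E-box, 1.79% a cAMP response element, 20.8% its core, 1.28% an estrogen-related receptor element and 0.0% the carbohydrate response element.

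Within the family 3 genes rose and 1 fell in cold brown adipose tissue. Slc2a4, Slc2a1 and Slc2a12 rose by between 1.29-fold and 1.62-fold, and Slc2a5 was 12.3-fold lower in cold than in ctrl animals. The other 5 genes tested did not pass the threshold, an adjusted p under 0.05 from edgeR's quasi-likelihood fit, adjusted by Benjamini and Hochberg's method over all 13876 genes tested. In the same comparison 31.6% of all genes tested were called, 16.2% higher in cold and 15.4% lower, so a call as such was common in these data. The median log2 fold change was 0.19 over the 9 members tested and -0.01 over all genes. With library totals in place of TMM scaling, 67.3% of all called genes were higher in cold, against 51.3% with TMM, and the same 3 members were called higher and the same 1 lower. These are bulk samples, in which fewer cells of a type and less RNA per cell cannot be told apart.

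**Figure D1:**
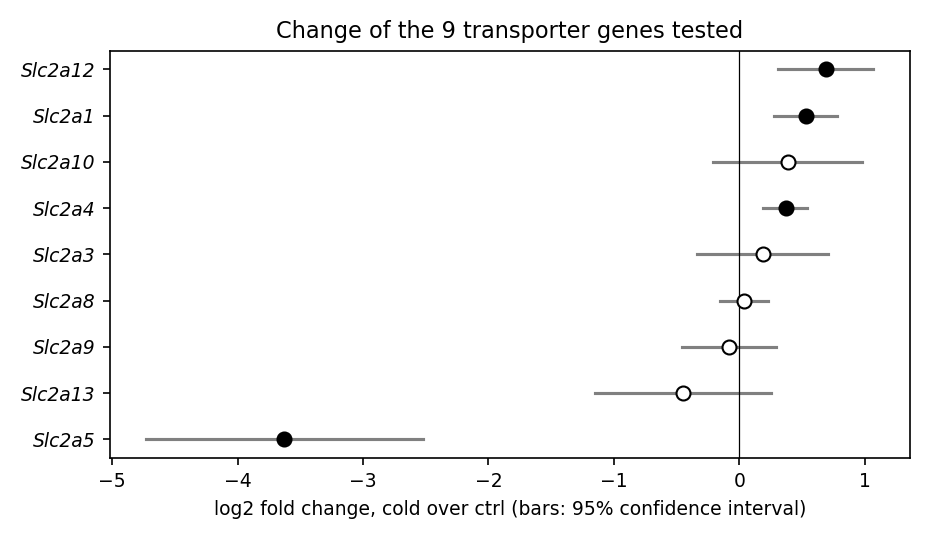
Log2 fold change, cold over ctrl, of the 9 transporter genes tested (points, with filled points for an adjusted p under 0.05 in edgeR) and the 95% confidence interval (bars), 6 animals per group. Slc2a5 stands at -3.63, and Slc2a4, Slc2a1 and Slc2a12 stand between 0.37 and 0.69.

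Slc2a4 (ENSMUSG00000018566.14, chr11:69942539-69948188, minus strand, GRCm38) had the highest level of the family. Its normalised counts were 720, 627, 636, 693, 565 and 715 CPM (estimated reads per 1000000 reads of the TMM-scaled library) in cold mice 4, 7, 11, 12, 15 and 16, against 510, 540, 495, 554, 441 and 523 CPM in ctrl mice 2, 5, 6, 9, 10 and 14. The lowest cold animal lay just above the highest ctrl animal, so the groups did not overlap, as was so for 16.3% of all genes tested (8.92% higher and 7.37% lower in cold). The means were 659 CPM in cold and 511 CPM in ctrl animals, with an SD of 9.18% of the mean in cold and 7.83% in ctrl (n = 6 each). In log2 terms cold exceeded ctrl by 0.37 ± 0.08 (SE; edgeR adjusted p 0.00265).

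Skeletal muscle also expresses Slc2a4, and muscle RNA varied widely between these libraries. The summed level of 10 muscle marker genes ran from 155 to 4540 CPM in cold (median 772) and from 110 to 1470 CPM in ctrl (median 763), no marker was without reads, and none of the 10 was called. The medians of the sums were close, but the fitted log2 fold change was positive for all 10 markers, from 0.67 to 1.36 with a median of 1.06 and an SE of 0.75 or more each. By the mean log2 CPM of these markers, cold mouse 15 was the highest of its group and cold mouse 7 the lowest. These animals had the lowest Slc2a4 of the cold group, 565 CPM in mouse 15 and 627 CPM in mouse 7. With the mean log2 CPM of the muscle markers as a covariate, Slc2a4 gave a log2 fold change of 0.39 (edgeR adjusted p 0.00261). The part of muscle RNA in the Slc2a4 result was otherwise not tested.

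Slc2a1 (ENSMUSG00000028645.11, chr4:119108711-119137983, plus strand) was present at a far lower level, also per length. It had 7.53, 7.93, 8.89, 7.64, 9.84 and 6.88 CPM in cold mice 4, 7, 11, 12, 15 and 16, against 4.44, 5.58, 5.82, 6.05, 6.34 and 5.55 CPM in ctrl mice 2, 5, 6, 9, 10 and 14. All 6 cold animals were above all ctrl animals. The highest of the cold group, mice 15 and 11, were also the animals with the most muscle marker RNA, as ctrl mouse 10 was in its group. Cold mouse 7 and ctrl mouse 6 had the least muscle marker RNA of their groups. Their Slc2a1 lay above the group medians, which were 7.79 CPM in cold and 5.70 CPM in ctrl animals. The next lowest in muscle marker RNA, cold mouse 4 and ctrl mouse 2, lay below these medians. They had 7.53 and 4.44 CPM, the latter the lowest Slc2a1 of the ctrl group. Cold exceeded ctrl by 0.53 ± 0.12 in log2 terms (edgeR adjusted p 0.00263), and by 0.46 with the muscle covariate (adjusted p 0.0051, edgeR). The part of muscle RNA in the Slc2a1 result was otherwise not tested. Endothelial cells also express Slc2a1, and the summed level of 6 endothelial markers was 669 to 844 CPM in cold and 606 to 848 CPM in ctrl animals. Of these 6 markers, Pecam1 was higher in cold (0.36, edgeR adjusted p 0.0125) and Tek lower (-0.54, edgeR adjusted p 0.00196), and the part of these cells in the Slc2a1 result was not tested.

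Slc2a12 (ENSMUSG00000037490.5, chr10:22645011-22704285, plus strand) encodes GLUT12, a glucose transporter that is found in insulin-sensitive tissues. Its counts were 3.88, 4.69, 3.39, 4.54, 5.03 and 3.73 CPM in cold mice 4, 7, 11, 12, 15 and 16, against 3.33, 2.91, 2.18, 3.02, 1.56 and 2.68 CPM in ctrl mice 2, 5, 6, 9, 10 and 14. The groups did not overlap, although the lowest cold animal and the highest ctrl animal were close. In log2 terms cold exceeded ctrl by 0.69 ± 0.18 (edgeR adjusted p 0.00698). Of the 31-base windows of Slc2a12 transcripts, 8.97% also occur on the opposite strand in Tbpl1, an overlapping gene with 14.0 ± 0.573 CPM in cold and 11.3 ± 1.16 CPM in ctrl animals (0.31 ± 0.09 in log2 terms, edgeR adjusted p 0.0112). No source used here gives the strand setting of the quantification, and the part of Tbpl1 reads in the Slc2a12 value was not tested.

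Slc2a5 (ENSMUSG00000028976.10, chr4:150119283-150144169, plus strand), the fructose transporter gene, moved the other way and by far more. It had 5.49, 4.21, 2.75, 4.13, 1.44 and 4.55 CPM in cold mice 4, 7, 11, 12, 15 and 16, against 51.5, 33.4, 16.3, 92.3, 21.6 and 66.0 CPM in ctrl mice 2, 5, 6, 9, 10 and 14. Every cold animal was well below the lowest ctrl animal, but the ctrl animals themselves were far apart, the highest 5.66 times the lowest, against 3.81 times within the cold group. The means were 3.76 ± 1.44 CPM in cold and 46.8 ± 29.0 CPM in ctrl animals (SD, n = 6 each). The log2 fold change was -3.63 ± 0.50 (95% confidence interval -4.73 to -2.52; edgeR adjusted p 2.90e-04). No 31-base window of its transcripts occurs in another gene on either strand. With the muscle covariate the log2 fold change was -3.59. White adipocyte markers (3 genes) summed to 23.5 to 85.2 CPM in cold and 28.7 to 125 CPM in ctrl animals, with no marker at 0 over all libraries and none called; their part in the result was not tested.

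**Figure D2:**
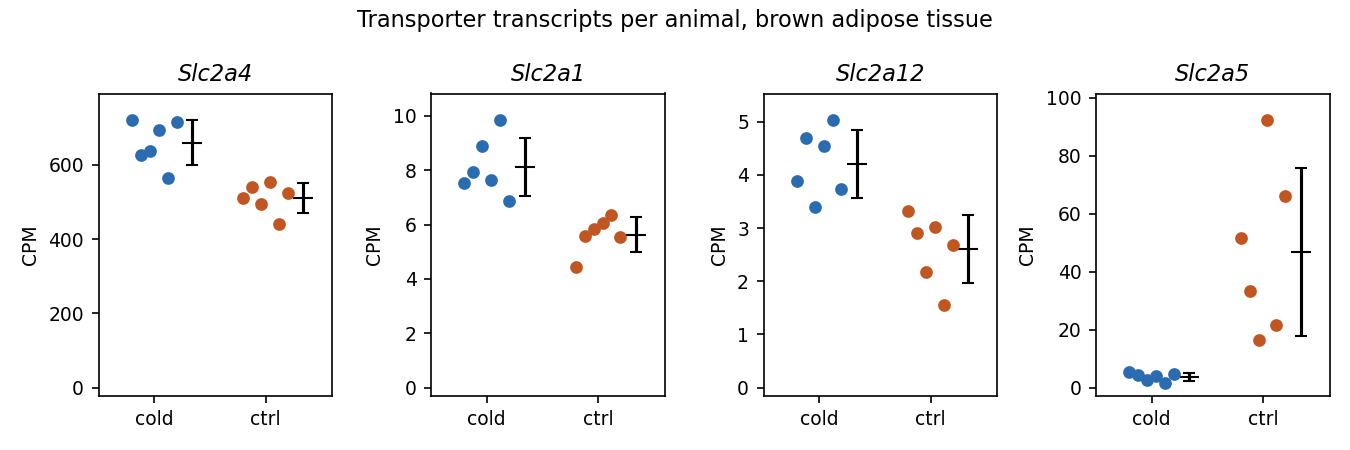
Normalised counts (CPM, linear axes that include 0) of the 4 called transporter genes in each of 6 cold and 6 ctrl animals (points), with mean and SD (black). Cold animals lie above all ctrl animals for Slc2a4, Slc2a1 and Slc2a12, and between 1.44 and 5.49 CPM for Slc2a5, below all ctrl animals.

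The genes whose profile over the 12 animals was nearest to that of Slc2a5, by the root mean square difference of centred log2 CPM, were Ntrk3 (0.516), Atp4b (0.551) and Acly (0.721), against a median of 1.905 over all genes tested. Ntrk3 encodes the neurotrophin-3 receptor, Atp4b a subunit of the gastric proton pump and Acly ATP citrate lyase, which makes cytosolic acetyl-CoA for fatty acid synthesis. These 3 genes were picked for a profile like that of Slc2a5, so that their values follow it is built in. Ntrk3 ran from 10.9 to 25.0 CPM in cold and from 126 to 257 CPM in ctrl animals, Atp4b from 0.612 to 2.10 CPM in cold and from 4.32 to 14.0 CPM in ctrl, and Acly from 516 to 1260 CPM in cold and from 1960 to 8740 CPM in ctrl. Mouse 9 was the highest ctrl animal for all 3, as for Slc2a5, whereas in cold Ntrk3 and Acly were highest in mouse 16 and Slc2a5 and Atp4b in mouse 4. The nearest to Slc2a1 were Eprs, Rrp12 and Slc6a8 (0.09, 0.105 and 0.107, against a median of 0.407), and the nearest to Slc2a4 were Zcchc9, Plpp6 and Ube2l3 (0.084, 0.086 and 0.087, against a median of 0.341). They were picked in the same way, so their likeness to Slc2a1 and Slc2a4, difference between groups included, is likewise built in.

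The members that were not called include transporters of the inside of the cell and of other substrates. Slc2a8 (GLUT8), an intracellular hexose transporter, ran from 18.5 to 22.8 CPM in cold (median 21.7) and from 18.4 to 23.5 CPM in ctrl animals (median 20.1), almost the same range. Its log2 fold change was 0.04 with a 95% confidence interval of -0.15 to 0.23, the narrowest among the uncalled members. Slc2a9, which encodes a urate transporter, had 2.53 to 3.79 CPM in cold and 2.06 to 4.38 CPM in ctrl animals, with a log2 fold change of -0.08 (-0.46 to 0.29), and that small value changed sign with library totals or an effective length offset. Slc2a3 (GLUT3), the high-affinity glucose transporter of neurons and some blood cells, had 1.17 to 2.24 CPM in cold and 0.742 to 1.96 CPM in ctrl animals (0.19, interval -0.34 to 0.71). The overlapping pseudogene Gm4482 on the same strand held 33 reads in all, 8.94% of the Slc2a3 reads. Of the 31-base windows of Slc2a3 transcripts, 2.33% also occur in other genes on the same strand and 2.04% on the opposite strand. The split of reads between Slc2a3 and Gm4482 was not tested. Macrophage markers (6 genes) summed to 37.1 to 55.1 CPM in cold and 29.5 to 56.4 CPM in ctrl animals, and 1 of them, Cd68, was called (0.77, edgeR adjusted p 0.0196).

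Slc2a10 (GLUT10) had 0.568 to 1.29 CPM in cold and 0.456 to 0.831 CPM in ctrl animals, with a log2 fold change of 0.39 (-0.21 to 0.98). Slc2a13, which encodes a proton-coupled myo-inositol transporter, had 0.194 to 0.568 CPM in cold and 0.342 to 0.740 CPM in ctrl animals (-0.45, interval -1.15 to 0.25). Slc2a6 (GLUT6), a lysosomal transporter, had 0 to 7 reads per cold library and 1 to 5 reads per ctrl library. The intervals of Slc2a3, Slc2a10 and Slc2a13 reach, in one direction or the other, changes as large as the called rises, so at this depth neither a change of that size nor its absence was shown. The interval of Slc2a9 reaches -0.46, which is larger in size than the Slc2a4 rise of 0.37 but not than the other called rises. The absence of a change as large as that of Slc2a4 was therefore not shown for Slc2a9.

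To compare genes with each other, counts were divided by effective length and expressed as CPM per kb. On this scale Slc2a4 stood at 299 ± 26.5 in cold and 224 ± 23.2 in ctrl animals and made up 93.9% of the summed level of the 10 genes in cold and 86.2% in ctrl. Slc2a5 stood at 1.47 ± 0.742 in cold and 20.3 ± 12.8 in ctrl animals, which placed it at rank 4 of the 10 in cold and rank 2 in ctrl. Its share of the summed level was 0.455% ± 0.205 in cold and 7.43% ± 3.96 in ctrl animals (SD, n = 6 each). The summed level of the 10 genes was 319 ± 28.0 in cold and 261 ± 32.9 in ctrl animals.

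In cold the order by mean level per kb was Slc2a4, Slc2a8, Slc2a1, Slc2a5, Slc2a9, Slc2a12, Slc2a3, Slc2a10, Slc2a6 and Slc2a13. In that order the ranges of neighbours were separate between Slc2a4 and Slc2a8 and between Slc2a8 and Slc2a1, and overlapped elsewhere. In ctrl the order was Slc2a4, Slc2a5, Slc2a8, Slc2a1, Slc2a9, Slc2a12, Slc2a3, Slc2a10, Slc2a6 and Slc2a13, with separate ranges between Slc2a4 and Slc2a5, Slc2a8 and Slc2a1, and Slc2a9 and Slc2a12. Slc2a5 was above Slc2a8 in 4 of 6 ctrl animals. The levels per kb of Slc2a6 rest on a few reads, some on short annotated transcripts, and ranged up to 0.76 in ctrl mouse 10 with 5 reads.

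**Figure D3:**
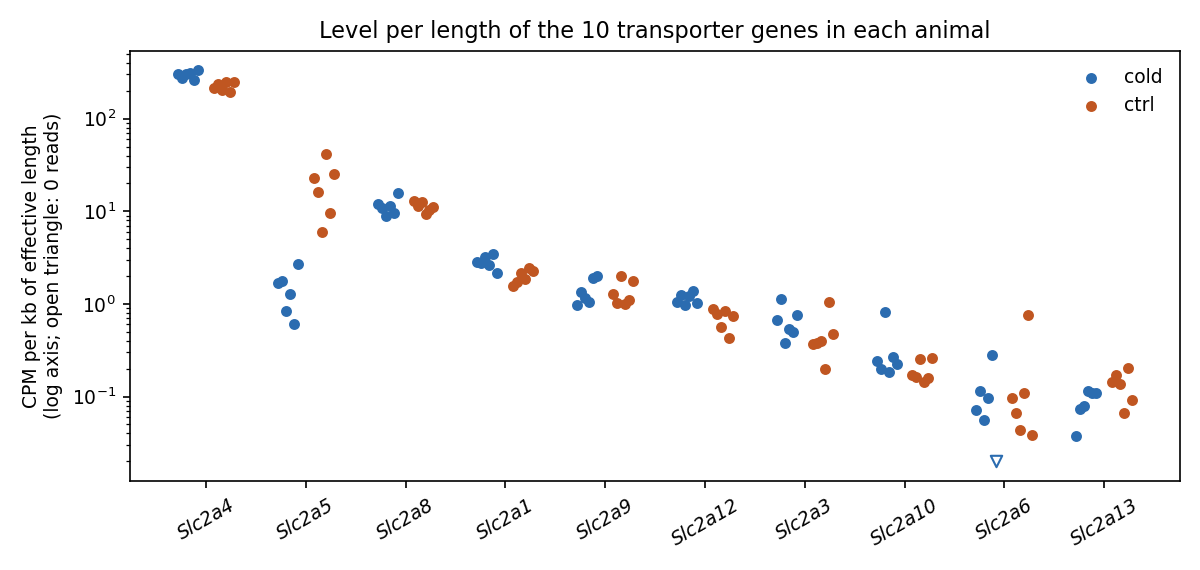
Level per length (CPM per kb of effective length, log axis) of the 10 transporter genes in each animal, ordered by the ctrl mean, with an open triangle for a library with 0 reads. Slc2a4 is the highest in every animal, and Slc2a5 lies between 0.611 and 2.67 in cold and between 5.93 and 41.5 in ctrl.

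The files list 58 transcripts of the 10 genes, of which 44 had reads and 15 passed the filter. The call at transcript level was made for 3 of these 15, Slc2a4-201 and Slc2a12-201 higher and Slc2a5-201 lower, in a comparison in which 10.3% of all 30345 transcripts tested were called (6.21% higher and 4.06% lower in cold). Slc2a5-201, the protein-coding transcript of 3158 nt, held 95.2% of Slc2a5 reads in cold and 91.3% in ctrl animals. It had 3.66 ± 1.47 CPM in cold and 42.8 ± 26.8 CPM in ctrl animals, which is -3.54 ± 0.48 in log2 terms (edgeR adjusted p 6.01e-04). The retained-intron transcript Slc2a5-202 had reads in 0 of 6 cold and 4 of 6 ctrl animals, and the processed transcript Slc2a5-203 in 2 cold and 4 ctrl animals. Slc2a5-204, also a processed transcript, had reads in 2 animals of each group. None of these 3 passed the filter, so the proportions of Slc2a5 transcripts could not be tested. Cold libraries held only 33 to 170 Slc2a5 reads each, and Slc2a5-202 held 2.56% of Slc2a5 reads in ctrl animals. Its absence in cold therefore does not show a loss beyond that of the gene.

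**Figure D4:**
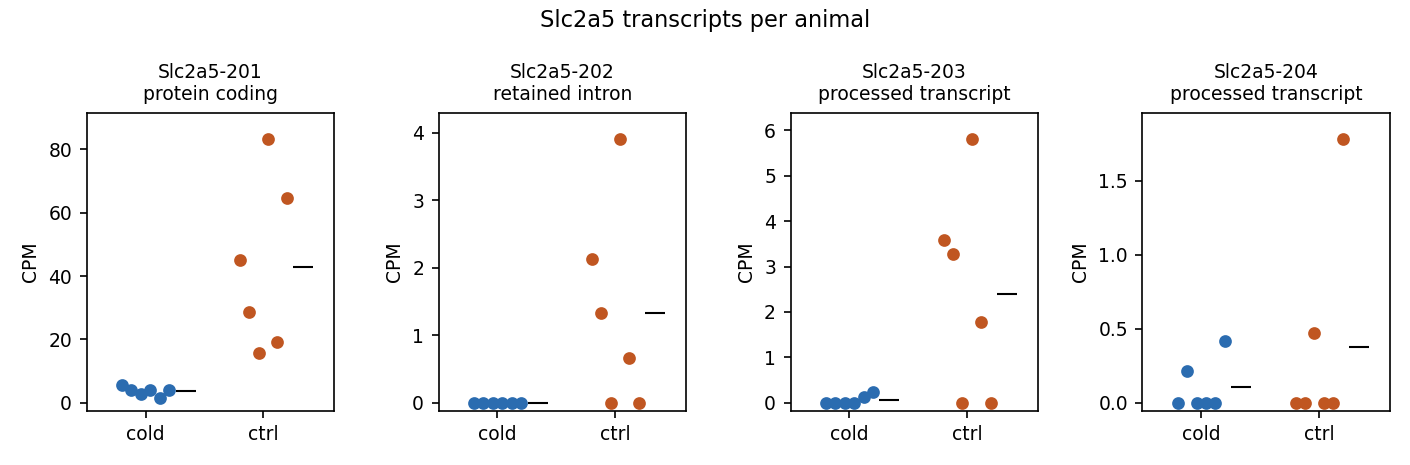
CPM of the 4 annotated Slc2a5 transcripts in each of 6 cold and 6 ctrl animals (points), with the group mean (black tick); the axes differ between panels. Nearly all reads are on the protein-coding Slc2a5-201, and Slc2a5-202 has no reads in cold, where the whole gene has 33 to 170 reads per library.

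Slc2a4-201, the main protein-coding transcript, had 525 to 702 CPM in cold and 407 to 489 CPM in ctrl animals and was higher by 0.42 ± 0.08 in log2 terms (edgeR adjusted p 0.00446). The retained-intron transcript Slc2a4-207 had 29.4 to 47.9 CPM in cold and 24.6 to 47.5 CPM in ctrl animals, a log2 difference of 0.08 ± 0.15 (edgeR adjusted p 0.858). It held 5.57% of Slc2a4 reads in cold and 6.82% in ctrl animals, and the test of transcript proportions within Slc2a4 gave an adjusted p of 0.456 (edgeR's diffSpliceDGE), in a comparison that called 1.45% of 7233 genes. The same test gave 1 for Slc2a1 and 0.705 for Slc2a8. Simes' test and limma's diffSplice called 0.221% and 3.12% of genes and none of these 3 members. Slc2a12-201 was the only Slc2a12 transcript with reads, and its log2 difference of 0.71 ± 0.21 had an edgeR adjusted p of 0.0493, close to the threshold. The call held in 1 of 12 fits with a single animal left out (without cold mouse 11; adjusted p 0.0491 to 0.112 over the 12 edgeR fits) and was lost in 14 of all 18 alternatives. Slc2a1-201 (0.60 ± 0.23, adjusted p 0.15, edgeR) was not called, and Slc2a1-204, annotated to nonsense-mediated decay, was assigned 25.2% of Slc2a1 reads in cold and 28.6% in ctrl animals, from 0 to 43.7% in single cold animals and 0 to 48.0% in single ctrl animals.

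Around the transporters, the genes of fructose and polyol metabolism were mixed in direction. Of 7 tested, 3 rose and 3 fell. Sord, which makes fructose from sorbitol, had 39.6 ± 2.48 CPM in cold and 55.0 ± 2.95 CPM in ctrl animals (log2 fold change -0.47 ± 0.07, adjusted p 4.68e-05, edgeR). Akr1b3, the aldose reductase that makes sorbitol from glucose, had 77.7 ± 10.1 CPM in cold and 60.3 ± 2.64 CPM in ctrl animals (0.37 ± 0.08, adjusted p 0.00269, edgeR), and its relative Akr1b8 also rose (0.52 ± 0.13, adjusted p 0.00636, edgeR). Khk, the kinase that starts fructose breakdown, was named after its values were seen and had 9.90 ± 1.39 CPM in cold and 13.0 ± 1.31 CPM in ctrl animals (-0.39 ± 0.11, adjusted p 0.0105, edgeR).

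Among genes of hexose phosphorylation, 1 of the 5 reported here rose and none fell. The 5 include G6pc3, named after its values were seen, which encodes a glucose 6-phosphatase and was not called (0.08, adjusted p 0.537, edgeR). Hk1 had 91.6 ± 8.74 CPM in cold and 65.4 ± 8.34 CPM in ctrl animals (0.49 ± 0.09, adjusted p 7.81e-04, edgeR). Hk2, the insulin-responsive hexokinase of muscle and fat, was named after its values were seen and had 612 to 873 CPM in cold and 576 to 1040 CPM in ctrl animals and was not called (-0.09, adjusted p 0.693, edgeR).

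Of 15 genes of GLUT4 trafficking, 6 rose and 2 fell. Myo1c, an unconventional myosin of GLUT4 vesicle delivery, had 648 ± 38.3 CPM in cold and 319 ± 22.8 CPM in ctrl animals (1.02 ± 0.07, adjusted p 6.75e-08, edgeR). Gga2, a sorting adaptor, had 28.2 ± 3.01 CPM in cold and 43.6 ± 5.57 CPM in ctrl animals (-0.63 ± 0.09, adjusted p 9.69e-05, edgeR). Stx4a, the plasma membrane syntaxin, had 54.6 ± 9.55 CPM in cold and 87.8 ± 8.63 CPM in ctrl animals (-0.68 ± 0.10, adjusted p 9.76e-05, edgeR). The other 5 that rose, named after their values were seen, were Stxbp3, Tbc1d4, Rhoq, Tbc1d1 and Rab10.

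Of 13 genes that encode known regulators of hexose transporters, 3 rose and 3 fell. Klf15, a transcription factor gene, had 93.1 ± 10.3 CPM in cold and 53.2 ± 9.38 CPM in ctrl animals (0.81 ± 0.11, adjusted p 4.15e-05, edgeR). Mlxipl, which encodes the carbohydrate-responsive factor ChREBP, had 333 to 429 CPM in cold and 455 to 816 CPM in ctrl animals (-0.66 ± 0.13, adjusted p 8.07e-04, edgeR). Usf2 was lower (-0.40 ± 0.08, edgeR adjusted p 0.00119). The other called genes of this list were named after their values were seen. Hif1a (0.51, edgeR adjusted p 0.00268) and Mef2d (0.21, edgeR adjusted p 0.0199) were higher in cold, and Arrdc4 was lower (-0.49, edgeR adjusted p 0.0288). Txnip, whose product lowers glucose uptake, was also named after its values were seen and had 593 to 773 CPM in cold and 682 to 849 CPM in ctrl animals and was not called (-0.19, adjusted p 0.106, edgeR).

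Of the 13 other sugar transporter genes listed, 4 were tested and 1, Slc37a4, which encodes the glucose-6-phosphate transporter of the endoplasmic reticulum, was lower in cold (13.1 ± 1.67 CPM in cold and 18.6 ± 4.92 CPM in ctrl animals, -0.51 ± 0.16, adjusted p 0.0228, edgeR). The family members Slc2a2 and Slc2a7, named after their values were seen, had 9 reads and 0 reads over all libraries. Of 6 genes tested of urate and ascorbate handling, 1 rose, the ascorbate transporter gene Slc23a2 (0.35 ± 0.13, adjusted p 0.046, edgeR). The shares called were 85.7% for fructose and polyol genes, 20.0% for hexose phosphorylation, 53.3% for GLUT4 trafficking, 46.2% for regulators, 25.0% for other sugar transporters and 16.7% for urate and ascorbate handling, beside 31.6% of all genes tested. The lists are short and were chosen with earlier results of these data known. The shares therefore cannot show that a list was called more often than other genes.

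**Figure D5:**
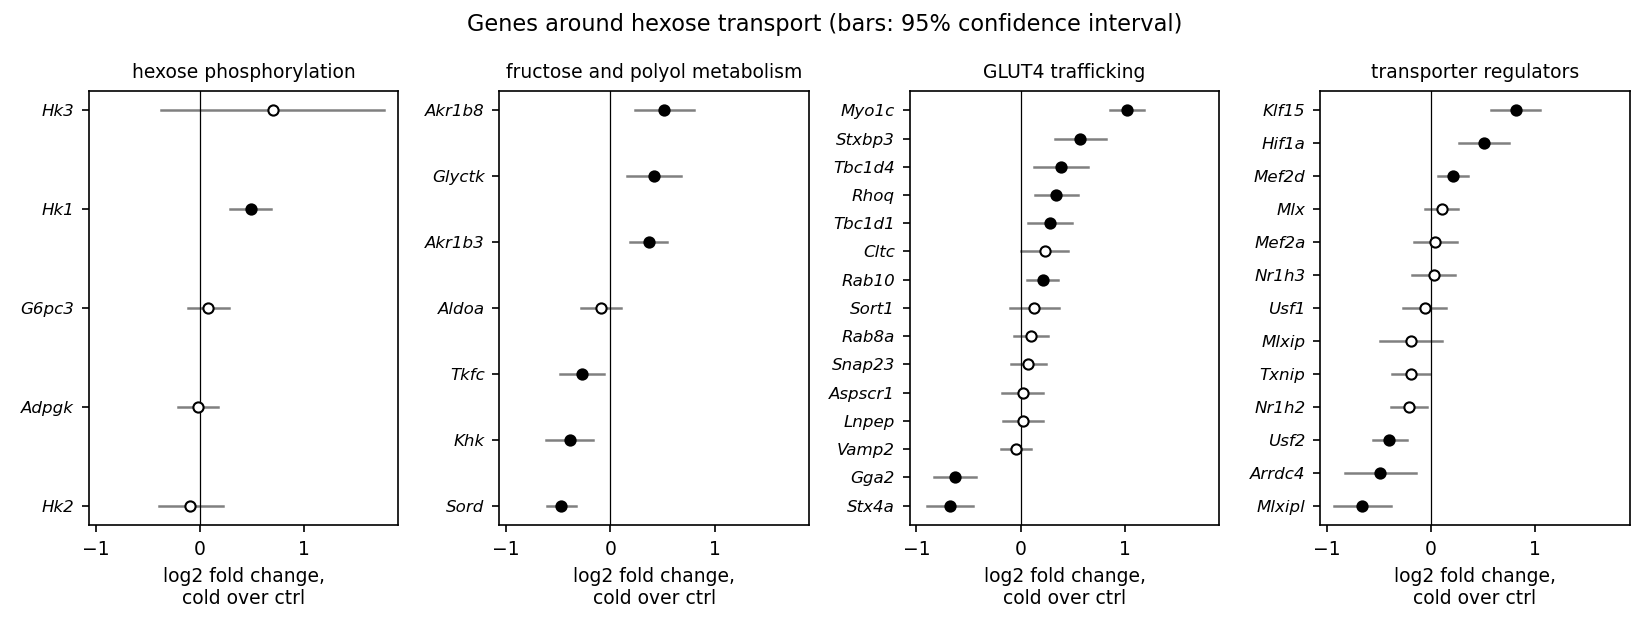
Log2 fold change, cold over ctrl, with 95% confidence interval (bars) for the tested genes of 4 lists around hexose transport, filled where the adjusted p in edgeR is under 0.05. Myo1c lies furthest to the right, and Stx4a, Mlxipl and Gga2 lie furthest to the left.

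The tissue label was checked against markers. The 7 brown adipocyte markers all had reads and summed to 24300 to 33400 CPM in cold and 19700 to 27600 CPM in ctrl animals. Fabp4 had the most reads of the 7, with means of 12200 CPM in cold and 9740 CPM in ctrl animals. The list includes genes of adipocytes in general, so the sum alone does not separate brown from white fat. Of the 7, Cidea (0.48, edgeR adjusted p 0.00616) and Fabp4 (0.32, edgeR adjusted p 0.0264) were higher in cold and Adipoq was lower (-0.63, edgeR adjusted p 1.41e-04). The other 4 were not called. Among them Ucp1 and Cox8b were named after their values were seen. Ucp1 had 9220 to 11300 CPM in cold and 6550 to 11100 CPM in ctrl animals (0.22, edgeR adjusted p 0.135). Cox8b had 243 to 681 CPM in cold and 283 to 788 CPM in ctrl animals (-0.52, edgeR adjusted p 0.189). The summed level of 5 erythroid markers was 558 to 1380 CPM in cold and 513 to 1050 CPM in ctrl animals, and that of 7 lymphocyte markers 1.84 to 4.96 CPM in cold and 2.67 to 6.59 CPM in ctrl animals. The 5 fibroblast and preadipocyte markers summed to 97.9 to 169 CPM in cold and 104 to 173 CPM in ctrl animals, and the 4 Schwann cell markers to 50.5 to 66.2 CPM in cold and 49.9 to 82.8 CPM in ctrl animals. Among these 4 lists 1 marker was called, Col1a1 of the fibroblast list, which was lower in cold (-0.51, edgeR adjusted p 0.022), and 5 of the 7 lymphocyte markers did not pass the filter.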

How the data were processed

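Poly(A) RNA of 12 mice (6 cold, 6 ctrl) was read as 50 nt paired ends, per the labels' protocols. Salmon, cutadapt, bcl2fastq and GRCm38 are named in the submitters' processing notes, and versions and the annotation release are not given in the sources used here. The deposited files hold, per transcript, estimated counts (expected counts, not normalized) and TPM (scaled by effective length), per the file headers. The extraction text of the labels also names another fat depot, and the tissue is taken from the sample labels. The labels give 1 library per mouse number.

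Transcripts were tied to genes by identifier in GENCODE M21 (GRCm38): 140137 of 140658 matched, and unmatched ones held 0.0866% to 0.152% of reads. Counts were summed per gene and rounded, kept where filterByExpr allowed (minimum count 10) and TMM-scaled. The two-sided test was edgeR's quasi-likelihood fit (robust), and p-values were adjusted by Benjamini and Hochberg's method over all 13876 genes, with a threshold of 0.05. Transcripts were tested alike, and proportions with diffSpliceDGE. The biological coefficient of variation was 20.6%. TPM were not compared between groups, since 55.2% of TPM in ctrl mouse 2, and 2.36% to 8.41% elsewhere, lay on transcripts whose effective length was below 50 nt. Likeness used log2 CPM with a pseudocount of 0.1.

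The members and gene lists were chosen with earlier results of these data known. Named by rule were all members, up to 3 called genes of smallest p per list, and the 3 genes nearest to Slc2a1, Slc2a4 and Slc2a5; other list genes are marked as named after their values were seen, and called cell type markers were also named then. A few genes of the lists are not reported here and were left out of the list counts. Alternatives were RLE factors, library totals, DESeq2, limma-voom, no filter, a stricter filter (1 CPM in 6 libraries), an effective length offset, a muscle covariate, other usage tests, annotated in place of effective length, markers without the top gene, each animal left out, and ctrl mouse 2 and cold mouse 15 left out together.

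Tested on simulated data, the gene test (13694 genes) found 53%, 75% and 98.6% of 1.5-fold, 2-fold and 4-fold changes with 4 false calls, and the transcript test (27720) found 8.06%, 21.4% and 61.3% with 3 false calls. The usage test (6644 genes) found 67.8% of 4-fold changes with 37 false calls, more than its threshold allows. Software was edgeR 4.0.16, DESeq2 1.42.0 and limma 3.58.1 in R 4.3.3, and pandas 2.3.3, NumPy 2.4.6 and matplotlib 3.10.9 in Python 3.11.15.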

Additional observations from a re-analysis of the deposited data

Results flagged for a closer look

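One value of a member stood apart from its group. Slc2a10 in the cold group was 1.29 CPM (24 reads) in mouse 11, against 0.831 CPM in the next animal, a gap of 0.637 of the range of the 6 animals, above Dixon's 95% critical value for 6 values. Chance gives about 1 such value in 20 groups, and 20 groups were examined. Without that animal the log2 fold change of Slc2a10 stayed uncalled, as it did without every other single animal (0.21 to 0.51).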

How the results depend on the processing

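All 9 tested members kept their side of the threshold under each alternative that could test them, with 3 higher and 1 lower throughout. The log2 fold change ran from 0.41 to 0.62 for Slc2a1 (adjusted p in edgeR, DESeq2 or limma 3.12e-04 to 0.0168), from 0.33 to 0.46 for Slc2a4, from -3.82 to -3.31 for Slc2a5 and from 0.58 to 0.79 for Slc2a12. Slc2a9, uncalled, was 0.03 with the effective length offset, 0.02 with library totals and -0.19 to 0.01 with single animals left out. Slc2a9-203 was 0.04 with library totals and -0.29 to 0.24 with single animals left out; Slc2a4-203 was then -0.23 to 0.01 and Slc2a4-207 -0.0012 to 0.19. Genes lower in cold numbered 1409 with library totals, against 2134. Transcripts higher in cold numbered 1233 without ctrl mouse 2 and cold mouse 15, against 1885; transcripts lower numbered 1905 with DESeq2, 683 with no filter and 786 without those 2 animals, against 1233. Genes with changed proportions numbered 16 by Simes, 226 by limma and 55 without those 2 animals, against 105, and 63 to 229 with single animals left out (229 without cold mouse 4, 63 to 69 without cold mouse 16, 7 or 12). Member transcripts higher in cold numbered 1 with no filter, with the muscle covariate and without those 2 animals, against 2, and 1 to 2 with single animals left out: Slc2a12-201 lost its call in 14 of 18 alternatives, 11 of them with 1 animal left out, with an adjusted p in edgeR of 0.155, 0.0705 and 0.102 in these 3. The Schwann marker ratio was -0.22 (log2) without its top marker, against 0.06. The causes were not tested. Low counts limit Slc2a3, Slc2a6, Slc2a10 and Slc2a13. No paired analysis was possible because the mouse numbers differ between the groups.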
